A study of Homo sapiens with 16 samples.

Results

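The response of CAL51 cells to 3 µM CC-671 was followed between 6 h and 24 h of exposure. For every gene the log2 difference between CC-671 and vehicle at 6 h was subtracted from the same difference at 24 h, and the result is called the shift. A positive shift means that the effect of the compound stood higher at 24 h than at 6 h, and a negative shift that it stood lower. The contrast rests on 10 of the 16 libraries of the study, which are 3 libraries of cells given 3 µM CC-671 for 24 h, 2 given DMSO for 24 h, 3 given 3 µM CC-671 for 6 h and 2 given DMSO for 6 h. The other 6 libraries came from cells given 10 µM, 3 for 24 h and 3 for 6 h. Their means enter only one comparison at the end. The same libraries also entered the filter on low counts, the estimate of spread behind every p-value and the mean level by which genes are selected. CAL51 is an established human triple-negative breast cancer line with a near-diploid karyotype and a tetraploid fraction. All groups were cells of this one line at passage 10, in DMEM with fetal bovine serum, with no genetic change made by the study, so that dose and time are what tells the groups apart. Treated libraries are described as biological replicates, without saying whether separate cultures were started on separate days, so that a p-value here measures spread among these particular libraries.

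CC-671 is a small-molecule inhibitor of TTK and CLK2. TTK is the kinase of the spindle checkpoint, which holds cells in mitosis until every chromosome is attached. CLK2 and its relatives CLK1, CLK3 and CLK4 phosphorylate the SR proteins, which help the spliceosome to find exons, and cells are known to answer a block of these kinases by making more CLK mRNA. A measurement at a second time separates genes whose effect fades while the compound stays in the medium from genes whose effect lasts, grows, turns round or first appears late.

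Each library held between 104609173 and 123789361 read pairs counted at genes. Of 55510 gene symbols in the files, 22007 passed the filter on low counts and were tested. Outside annotated exons lay 5.64 to 5.98% of the pairs in 3 µM cells at 24 h, against 4.26 to 4.59% in DMSO cells at 24 h, and 5.67 to 6.35% in 3 µM cells at 6 h, against 4.38 to 4.76% in DMSO cells at 6 h. The excess in treated cells was 1.38 percentage points at 24 h and 1.34 at 6 h. The scaling factors were 1.039 to 1.042 in 3 µM cells at 24 h, 0.969 to 0.971 in DMSO cells at 24 h, 0.969 to 0.991 in 3 µM cells at 6 h and 0.963 to 0.968 in DMSO cells at 6 h. Levels are given as CPM, counts relative to the library total, after this scaling. In bulk RNA of this kind, fewer cells in a state and less RNA per cell cannot be told apart.

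The effect of 3 µM CC-671 shifted for 10853 of 22007 genes, 49.3% of those tested, at an adjusted p under 0.05 in edgeR's quasi-likelihood test with Benjamini-Hochberg adjustment, the rule for every call here. The shift was positive for 5631 genes (25.6%) and negative for 5222 genes (23.7%). It reached 2-fold for 940 genes in the positive direction and for 658 in the negative direction, and the median over all tested genes was 0.012. Without the scaling factors the median shift was 0.090 and 61.9% of called shifts were positive, against 51.9% with them. Of the called genes, 8313 (76.6%) kept their call and sign without each of the 10 libraries in turn.

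The effects that make up the shift were both broad. At 24 h, 13339 genes (60.6%) differed between 3 µM and DMSO, 6529 higher (29.7%) and 6810 lower (30.9%). At 6 h, 13909 genes (63.2%) differed, 6960 higher (31.6%) and 6949 lower (31.6%). Across the 13067 genes whose mean log2 CPM was 1 or more, the effects at 24 h and 6 h, which share no library, had a Pearson correlation of 0.60 and a Spearman correlation of 0.51, given as a description since genes are not independent replicates. The median effect at 24 h was 0.001 over all tested genes. Without the scaling factors it was 0.102, and the balance of calls turned at 24 h, with 8422 genes higher and 4968 lower, while at 6 h 7371 were higher and 6606 lower.

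The arms can be read separately. Between 6 h and 24 h, 14702 genes (66.8%) changed in cells kept in 3 µM CC-671, 7587 higher (34.5%) and 7115 lower (32.3%) at 24 h. Over the same interval 4522 genes (20.5%) changed in cells kept in DMSO, 2421 higher (11.0%) and 2101 lower (9.55%) at 24 h, with only 2 libraries at each time. That count was 2661 without DMSO 24 h replicate 1, 2642 without DMSO 24 h replicate 2 and 2741 without DMSO 6 h replicate 1. The 3 µM arm without the scaling factors had 8941 genes higher and 5847 lower at 24 h. A shift can therefore hold a change in the vehicle arm: of the genes with a called shift, 28.1% also had a called change over time in DMSO cells and 92.1% in 3 µM cells. The change over time in DMSO cells is given for each gene list in which it was called for more than 1 member in 3.

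Genes were sorted by their calls at each time and by the call of the shift. In the largest sets with a called shift the effect weakened. The effect faded in part for 1670 genes that were lower at 6 h and for 849 that were higher. It faded fully, with no call left at 24 h, for 1449 genes lower at 6 h and for 1287 higher. The sign turned round, with a call at each time, for 881 genes that were lower at 6 h and higher at 24 h and for 1031 that were higher at 6 h and lower at 24 h. Effects called only at 24 h and with a called shift were delayed effects, 1057 higher and 1215 lower. Effects already called at 6 h grew for 499 higher and 750 lower genes. Without the scaling factors 808 higher genes grew and 1348 genes turned from lower at 6 h to higher at 24 h. No shift was called for 2445 genes that were higher at both times and for 1621 that were lower at both. The remainder included 849 higher and 578 lower genes called only at 6 h without a called shift. Another 798 higher and 523 lower genes were called only at 24 h without one. A called shift alone was positive for 75 genes and negative for 90, and 4340 genes (19.7%) had no call. Single vehicle libraries moved some of these counts: without DMSO 24 h replicate 2 there were 553 higher genes that faded in part and 1284 higher genes called only at 6 h, without DMSO 24 h replicate 1 the genes called only at 6 h were 1412 higher and 927 lower, and without DMSO 6 h replicate 2 those called only at 24 h were 1220 higher and 854 lower.

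**Figure D1:**
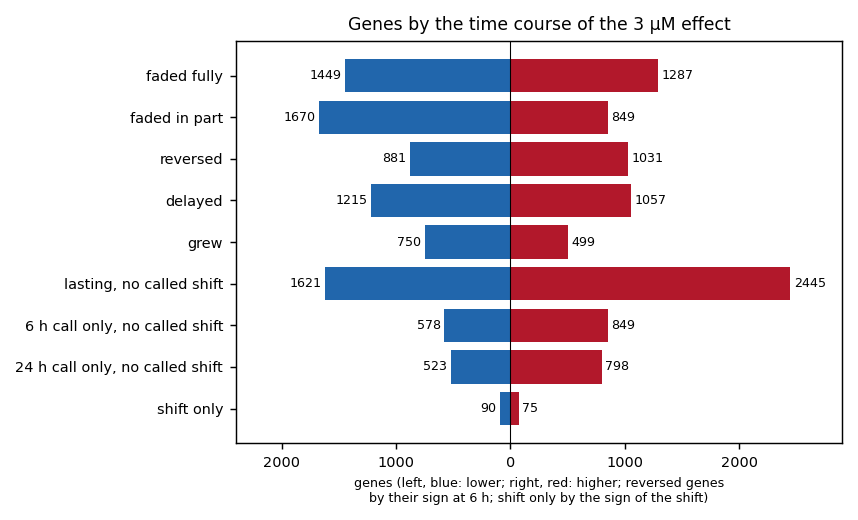
Number of tested genes in each class of time course of the 3 µM effect. Bars to the right count genes that were higher in CC-671 than in DMSO and bars to the left genes that were lower. Reversed genes are placed by their sign at 6 h and genes with a called shift alone by the sign of the shift. The longest bars are the 2445 genes that stayed higher without a called shift and the 1670 lower genes whose effect faded in part.

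Class medians show in which arm the level moved. Genes that faded fully from lower had a median effect of 0.00 at 24 h and -0.52 at 6 h, with a median change over time of 0.55 in 3 µM cells and 0.00 in DMSO cells. Reversed genes that were lower at 6 h and higher at 24 h had a median change of 0.70 in 3 µM cells and -0.02 in DMSO cells. In the delayed classes the median change was 0.49 in 3 µM cells and -0.06 in DMSO cells for genes that became higher, and -0.38 in 3 µM cells and 0.04 in DMSO cells for genes that became lower. These medians run over genes that moved both ways in the vehicle arm. A change over time in DMSO cells was called for 34.4% of the delayed lower genes, 19.5% of the delayed higher genes, 23.5% of the genes that faded fully from lower and 24.5% of those that turned from lower to higher, against 20.5% of all tested genes. Among effects that grew it was called for 46.7% of lower and 31.3% of higher genes. For genes that faded in part the share was 31.6% from lower and 21.9% from higher. It was 24.1% for genes that faded fully from higher and 31.5% for those that turned from higher to lower.

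**Figure D2:**
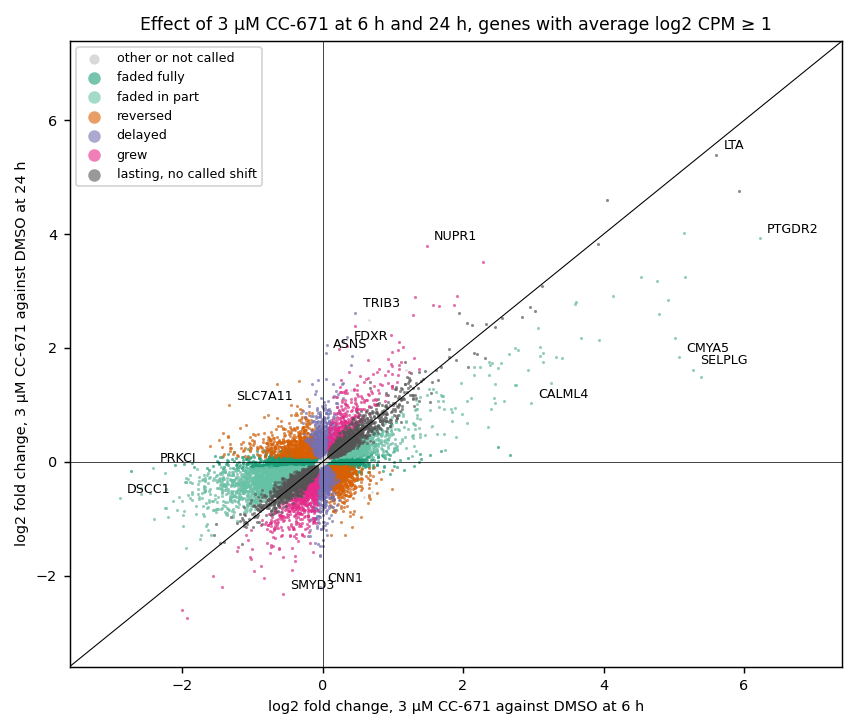
Effect of 3 µM CC-671 against DMSO at 24 h (vertical axis, log2) plotted against that at 6 h (horizontal axis, log2) for the 13067 genes whose mean log2 CPM was 1 or more, 1 point per gene, coloured by class. The diagonal marks equal effects; PRKCI and DSCC1 lie far left near 0 on the vertical axis, SELPLG, CMYA5 and PTGDR2 far right below the diagonal, LTA near the diagonal, and CNN1 straight below the origin.

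By a 2-fold cut, early decreases were regained in a larger share of genes than early increases were lost. Of 1083 genes that were at least 2-fold lower in 3 µM cells at 6 h, 127 (11.7%) were still 2-fold lower at 24 h, and their median effect was -0.41 at 24 h against -1.28 at 6 h. Of 1870 genes at least 2-fold higher at 6 h, 1110 (59.4%) were still 2-fold higher, with a median effect of 1.39 at 24 h against 1.92 at 6 h. The lower set thus started nearer the cut. No call was left at 24 h for 355 of the 1083 lower genes and 556 of the 1870 higher genes, a measure by which the sets differed less. These sets were chosen at 6 h, so that some return toward 0 comes from the choice alone, and the set of higher genes holds many with low counts. Among genes whose mean log2 CPM was 1 or more, 37 of 572 lower genes (6.47%) and 152 of 248 higher genes (61.3%) stayed past 2-fold. That mean runs over all 16 libraries, so that genes nearly silent in vehicle enter only through their treated libraries. They enter more readily where the level is still high at 24 h, which can raise the share of higher genes that stayed. The shift was called against the early effect for 536 of these 572 lower genes (93.7%) and for 138 of these 248 higher genes (55.6%).

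Among genes whose mean log2 CPM was 1 or more and whose call held without each library, the recovered genes with the largest positive shifts have varied known roles. PRKCI, which encodes an atypical protein kinase C that sets cell polarity, had 142, 146 and 148 CPM in 3 µM cells at 24 h, against 155 and 157 CPM in DMSO cells at 24 h. At 6 h it had 28.9, 28.6 and 30.7 CPM in 3 µM cells, against 156 and 158 CPM in DMSO cells. The 3 treated libraries at 6 h stood far below all others, whereas at 24 h the treated libraries lay just under the vehicle libraries without overlap. Its level relative to vehicle was 0.93 at 24 h and 0.187 at 6 h, a shift of 2.31 ± 0.06 (log2, SE, edgeR adjusted p = 1.3e-18). The PRKCI effect at 24 h was -0.00 without the scaling factors, with no call.

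DSCC1, a subunit of the complex that loads the replication clamp during the making of sister chromatid cohesion, had 22.0, 23.6 and 24.3 CPM in 3 µM cells at 24 h, against 36.8 and 36.1 CPM in DMSO cells at 24 h. The levels at 6 h were 5.07, 4.81 and 5.51 CPM in 3 µM cells, against 37.1 and 39.0 CPM in DMSO cells. Treated libraries were below vehicle libraries at each time, and the gap was much narrower at 24 h. The shift was 2.25 ± 0.07 (edgeR adjusted p = 2.3e-18), and the effect at 24 h was still -0.64.

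UTP6, a part of the machine that processes the precursor of ribosomal RNA, had a shift of 2.12 ± 0.07 with effects of -0.47 at 24 h and -2.59 at 6 h. SFR1, which helps homologous recombination, shifted by 2.05 ± 0.08, and PEX3, which brings membrane proteins to peroxisomes, by 2.02 ± 0.09. MTG1, a GTPase of the mitochondrial ribosome, shifted by 2.03 ± 0.13, with 5.12, 4.49 and 4.82 CPM in 3 µM cells at 24 h, against 4.58 and 5.48 CPM in DMSO cells at 24 h. At that time the MTG1 groups overlapped, whereas at 6 h the treated libraries had 1.57, 1.35 and 1.53 CPM, against 6.45 and 6.22 CPM in DMSO cells. Full return was also seen for SRBD1 (shift 1.95 ± 0.06), for OFD1, a centriole protein needed for cilia (1.83 ± 0.08), and for SUPT20H, a subunit of the SAGA transcription complex (1.74 ± 0.08). Their effects at 24 h were -0.03, -0.03 and -0.09. Not every decrease was regained: VPS36, a subunit of the ESCRT sorting complex, had effects of -1.41 at 24 h and -1.40 at 6 h, PDE3B, a cyclic nucleotide phosphodiesterase, -1.42 and -1.46, and IGF2BP3, an RNA-binding protein, -1.30 and -1.55. No shift was called for VPS36 or PDE3B, and the sign of so small a difference changed between fits. The IGF2BP3 shift of 0.25 ± 0.11 missed the threshold (edgeR adjusted p = 0.084) and passed it in 5 alternatives, with an adjusted p between 0.0066 and 0.24 over all of them.

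**Figure D3:**
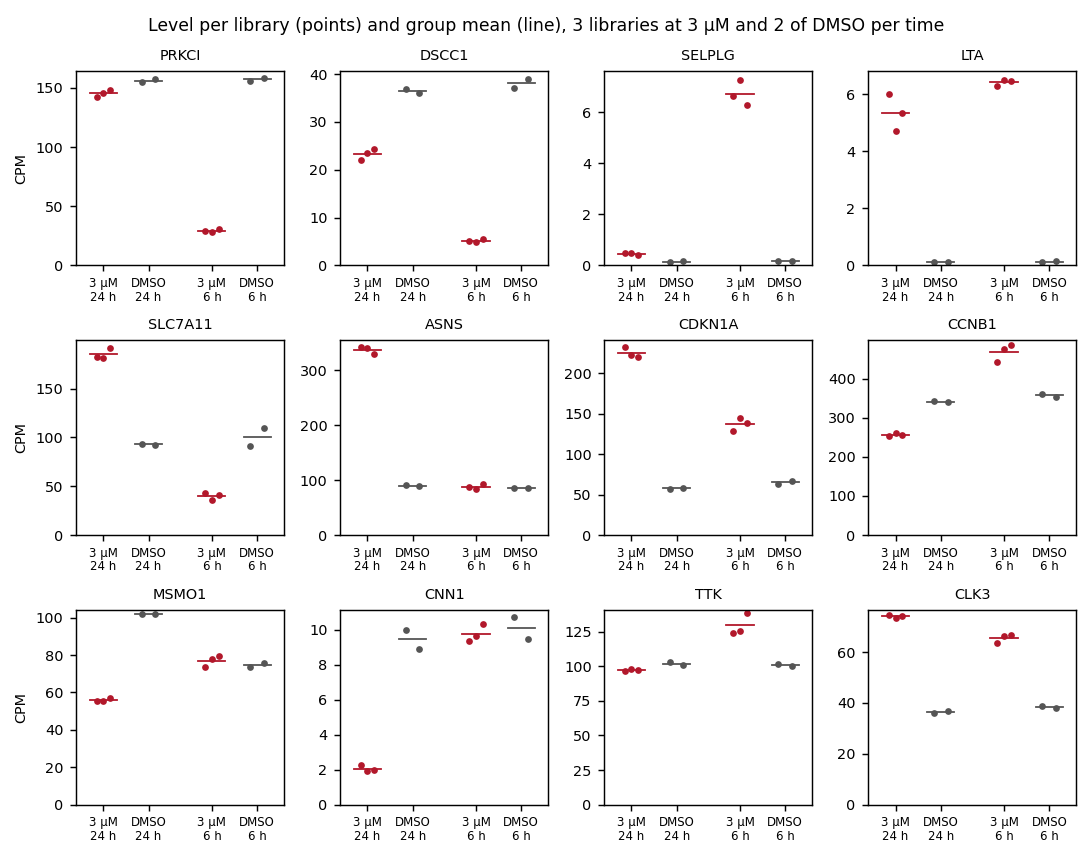
Level in CPM of 12 genes in each of the 10 libraries (points) with the group mean (line), 3 libraries at 3 µM and 2 of DMSO at each time, each vertical axis starting at 0. PRKCI and DSCC1 are low in 3 µM cells at 6 h only or mainly, SELPLG is high there and low at 24 h, LTA is high at both times, SLC7A11 and CCNB1 cross their vehicle levels in opposite directions, and ASNS and CNN1 leave theirs at 24 h.

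The size of the early decrease and of its recovery varied with the number of exons of a gene, a relation looked for after the data had been seen and given as a description. Exon numbers came from GENCODE 29 and could be matched for 93.8% of the 13067 genes whose mean log2 CPM was 1 or more. For 674 genes of 1 exon the median effect was -0.11 at 24 h and 0.10 at 6 h, a median shift of -0.18. For 1689 genes of 2 to 4 exons it was -0.02 at 24 h and 0.14 at 6 h, and for 3333 genes of 5 to 8 exons -0.01 at 24 h and 0.08 at 6 h. For 3907 genes of 9 to 16 exons it was -0.06 at 24 h and -0.09 at 6 h, and for 2197 genes of 17 to 32 exons -0.12 at 24 h and -0.30 at 6 h. For 463 genes of more than 32 exons the medians were -0.20 at 24 h and -0.44 at 6 h, a median shift of 0.28. In that last set 74.9% of genes were called lower at 6 h and 59.0% at 24 h, against 25.4% and 43.0% of genes with 1 exon. At 6 h the medians were lower in each further set from 2 to 4 exons onward, while at 24 h genes of 1 exon were about as low as those of 17 to 32 exons and the sets between them lay nearer 0. The vehicle arm had a smaller trend of the same direction over time, with medians of 0.18 for genes of more than 32 exons and -0.05 for genes of 1 exon, against 0.45 and -0.23 in the 3 µM arm. Gene length, transcript length and level go along with exon number, and their part was not tested.

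**Figure D4:**
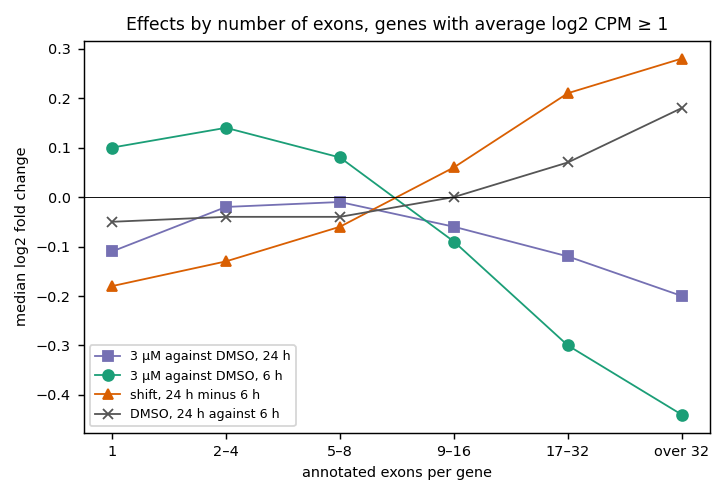
Median log2 fold change by number of annotated exons per gene, for genes whose mean log2 CPM was 1 or more. Lines give the effect at 24 h, the effect at 6 h, the shift and the change over time in DMSO cells; the 24 h line spans -0.01 to -0.20, while the 6 h line is at 0.10 for 1 exon and -0.44 above 32 exons.

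Under the same limits the largest negative shifts mostly belonged to genes nearly silent in untreated cells and switched on at 6 h. The mean level in those limits runs over all libraries of the study, at both doses. A gene nearly silent in vehicle therefore enters this ranking only through its treated libraries. The make-up of the ranking thus depends in part on the limit itself. SELPLG, which encodes the selectin ligand PSGL-1 of white blood cells, had 0.489, 0.482 and 0.409 CPM in 3 µM cells at 24 h, against 0.125 and 0.177 CPM in DMSO cells at 24 h. Cells collected at 6 h had 6.63, 7.27 and 6.29 CPM in 3 µM cells, against 0.167 and 0.181 CPM in DMSO cells. The treated libraries were above vehicle at both times without overlap, by 3.06-fold at 24 h and 38.5-fold at 6 h. The shift was -3.65 ± 0.40 (edgeR adjusted p = 1.5e-08).

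Other genes of this kind were CMYA5, a large muscle protein (shift -3.23 ± 0.51), BAAT, which joins bile acids to amino acids in liver (-2.85 ± 0.40), PTGDR2, a prostaglandin D2 receptor (-2.29 ± 0.43), and ADCY10, the soluble adenylyl cyclase (-2.18 ± 0.46). PTGDR2 remained well above vehicle, with 1.49, 1.36 and 1.70 CPM in 3 µM cells at 24 h, against 0.0801 and 0.118 CPM in DMSO cells at 24 h. Its 3 treated libraries at 6 h had 7.73, 8.68 and 7.57 CPM, against 0.0918 and 0.120 CPM in DMSO cells. CALML4, a calmodulin-like gene with a measurable level in vehicle, had effects of 1.02 at 24 h and 2.97 at 6 h, and CLDN4 (a tight junction claudin), AQP4 (a water channel) and SCN2A (a neuronal sodium channel) were higher at 6 h by 1.68, 1.31 and 1.16 and had no call at 24 h.

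A further set of switched-on genes stayed far above vehicle at both times without a called shift. LTA, the cytokine lymphotoxin alpha, had 6.00, 4.70 and 5.35 CPM in 3 µM cells at 24 h, against 0.125 and 0.128 CPM in DMSO cells at 24 h. At 6 h it had 6.29, 6.51 and 6.48 CPM in 3 µM cells, against 0.117 and 0.146 CPM in DMSO cells. Every treated library stood far above every vehicle library, with means 42.0-fold apart at 24 h and 48.6-fold at 6 h, and no shift was called (-0.21 ± 0.45, edgeR adjusted p = 0.73). The noncoding LINC00176 was likewise high at both times, with effects of 4.60 at 24 h and 4.05 at 6 h, and DRP2, a relative of dystrophin, had 2.65 and 3.02. The LINC00176 shift of 0.55 ± 0.35 missed the threshold (edgeR adjusted p = 0.21) and passed it in 2 alternatives, with an adjusted p between 0.024 and 0.47 over all of them. CCR6, a chemokine receptor of lymphocytes, had effects of 4.75 at 24 h and 5.92 at 6 h. Its shift of -1.17 ± 0.81 missed the threshold (edgeR adjusted p = 0.25) in a gene with at most 0.0667 CPM in any vehicle library. The CCR6 level in 3 µM cells was nonetheless lower at 24 h, with 1.22, 1.34 and 1.30 CPM, against 3.86, 4.58 and 3.32 CPM at 6 h, without overlap.

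Reversed genes moved through their vehicle level. Among those lower at 6 h and higher at 24 h, PTK2B, a focal adhesion kinase relative, had 3.85, 3.95 and 4.02 CPM in 3 µM cells at 24 h, against 1.68 and 1.37 CPM in DMSO cells at 24 h. The levels at 6 h were 0.933, 0.728 and 0.853 CPM in 3 µM cells, against 1.26 and 1.36 CPM in DMSO cells. Treated libraries were thus all above vehicle at 24 h and all below it at 6 h. The PTK2B shift was 2.01 ± 0.17. PPCDC, an enzyme of coenzyme A synthesis, shifted by 1.88 ± 0.08, and EML2, a microtubule protein, by 1.85 ± 0.08. In the other direction OPN3, an opsin, had 10.0, 11.0 and 10.6 CPM in 3 µM cells at 24 h, against 23.3 and 23.4 CPM in DMSO cells at 24 h. Its treated libraries at 6 h held 29.8, 29.8 and 30.9 CPM, against 23.2 and 22.2 CPM in DMSO cells, again without overlap at either time. DCHS1, a protocadherin, shifted by -1.62 ± 0.12 and CXCR4, a chemokine receptor, by -1.52 ± 0.15.

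The clearest late gain among the gene lists was in targets of ATF4. ATF4 is a transcription factor made when the kinases of the integrated stress response slow translation, and it raises genes for amino acid synthesis and uptake, for tRNA charging and, on longer stress, for cell death. Of 33 listed targets, all tested, 27 shifted up and 2 down, with a median shift of 0.73 against 0.012 over all genes. The counts of shifts in this and every further list are to be read against 25.6% of all tested genes shifted up and 23.7% down, and against 34.9% up and 32.8% down of the genes whose mean log2 CPM was 1 or more, where more shifts were called. Without the scaling factors the median shift of every list was higher by 0.08, so that medians near 0 depend on the scaling. At 24 h 28 targets were higher and 4 lower with a median effect of 0.94, and at 6 h 17 were higher and 8 lower with a median of 0.26. The change lay in the treated arm, where 25 targets were higher at 24 h than at 6 h and 3 lower, while in DMSO cells 3 were higher and 7 lower.

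ASNS, the asparagine synthetase, had 342, 341 and 329 CPM in 3 µM cells at 24 h, against 91.0 and 89.1 CPM in DMSO cells at 24 h. Cells collected at 6 h had 87.5, 84.3 and 92.6 CPM in 3 µM cells, against 84.8 and 85.5 CPM in DMSO cells. The groups overlapped at 6 h and were far apart at 24 h, with a 3.75-fold difference. The shift was 1.86 ± 0.06 (edgeR adjusted p = 8.2e-19).

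SLC7A11, the cystine importer, moved furthest. It had 183, 182 and 192 CPM in 3 µM cells at 24 h, against 93.8 and 92.1 CPM in DMSO cells at 24 h, and 42.7, 36.1 and 40.9 CPM in 3 µM cells at 6 h, against 91.6 and 110 CPM in DMSO cells at 6 h. The treated libraries were all below vehicle at 6 h and all above it at 24 h. Its shift was 2.34 ± 0.20 (edgeR adjusted p = 2.2e-06). Stress regulators in the list had shifts of 2.32 ± 0.22 for NUPR1, a small chromatin protein, 2.15 ± 0.35 for TRIB3, a pseudokinase that restrains ATF4, and 1.84 ± 0.33 for DDIT3, the death-linked factor CHOP. NUPR1 was 13.9-fold higher in 3 µM cells than in DMSO cells at 24 h and 2.79-fold higher at 6 h. ATF3 had an effect of 2.50 at 24 h and 0.65 at 6 h, and its shift of 1.84 missed the threshold (edgeR adjusted p = 0.14).

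Enzymes and carriers moved less but together with these. PCK2 (mitochondrial phosphoenolpyruvate carboxykinase) shifted by 1.20, the amino acid carrier chain SLC3A2 by 0.99, the serine pathway enzyme PSAT1 by 0.85 and the mitochondrial folate enzyme MTHFD2 by 0.86. The tRNA ligases AARS, GARS, SARS and WARS shifted by 1.00, 0.78, 0.60 and 0.50, each with a call. The downward shifts were those of PSPH, the last enzyme of serine synthesis (-0.37), which was higher at both times and less so at 24 h, and of ATF5, a related transcription factor (-0.30), which was lower at both times.

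Promoters of the list were searched for TGATGCAA, the composite site of ATF4 with a C/EBP partner, on both strands of the 300 bases around each RefSeq gene start. Of 27 members with a promoter entry 2 held it (7.41%), against 304 of 35116 promoters (0.866%). These are stretches of 60 bases that end before the gene start, from GRCh38.p14 and written along the strand of the gene, shown because both genes shifted up; capitals mark the match, which in each lies on the opposite strand and so reads TTGCATCA. CHAC1, which breaks down glutathione (shift 1.29), is at chr15:40953236-40953295 on the + strand, 201 bases from match to start, and AARS, the alanine tRNA ligase, is at chr16:70289660-70289719 on the - strand, 179 bases from match to start.
CHAC1: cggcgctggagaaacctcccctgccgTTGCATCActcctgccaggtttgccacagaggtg
AARS: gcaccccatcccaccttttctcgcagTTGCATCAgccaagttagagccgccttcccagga
CHAC1 had 51.8, 48.5 and 48.4 CPM in 3 µM cells at 24 h, against 8.30 and 8.34 CPM in DMSO cells at 24 h, and 26.1, 28.1 and 26.9 CPM in 3 µM cells at 6 h, against 10.8 and 11.4 CPM in DMSO cells at 6 h. AARS had 430, 422 and 420 CPM in 3 µM cells at 24 h, against 193 and 190 CPM in DMSO cells at 24 h, and 190, 196 and 200 CPM in 3 µM cells at 6 h, against 178 and 175 CPM in DMSO cells at 6 h. Both genes were above vehicle at both times without overlap, with the wider gap at 24 h. A match of letters is a description and not a binding site.

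Targets of p53 were already high at 6 h and higher still at 24 h. The p53 protein answers DNA damage and failed mitosis by raising genes for cell cycle arrest, repair and death. Of 32 listed targets, 20 shifted up and 2 down, with a median shift of 0.34. In 3 µM cells 21 were higher and 4 lower at 24 h than at 6 h, against 4 higher and 8 lower in DMSO cells. At 24 h 31 were higher and 1 lower with a median effect of 1.13, and at 6 h 30 were higher and 1 lower with a median of 0.725. No shift was called for 10 of them, all higher at both times, among them TP53INP1, SESN1, BTG2 and ZMAT3.

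CDKN1A, the cyclin-dependent kinase inhibitor p21, had 232, 222 and 220 CPM in 3 µM cells at 24 h, against 57.3 and 58.1 CPM in DMSO cells at 24 h. At 6 h it had 129, 144 and 138 CPM in 3 µM cells, against 63.5 and 66.6 CPM in DMSO cells. The treated groups stood above vehicle at both times, by 3.90-fold at 24 h and 2.11-fold at 6 h, and the shift was 0.89 ± 0.06 (edgeR adjusted p = 1.3e-12). MDM2, the ligase that destroys p53, shifted by 0.34 ± 0.05 with effects of 1.32 at 24 h and 0.98 at 6 h.

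The largest shifts of the list were those of FDXR, a mitochondrial electron carrier (1.69 ± 0.07), XPC, which finds damage for nucleotide excision repair (1.26 ± 0.07), the secreted factor GDF15 (1.08 ± 0.13) and DDB2, a partner of XPC (0.93 ± 0.06). XPC was higher at 24 h by 0.53 and lower at 6 h by 0.73. Death genes also gained, with shifts of 0.88 for PMAIP1 (NOXA) and FAS, 0.35 for BAX and 0.35 for BBC3 (PUMA). PLK2, a polo-like kinase, shifted down, with effects of -0.25 at 24 h and 0.22 at 6 h. The downward call of CCNG1 (-0.18) was lost in some fits with 1 library left out.

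Chaperone genes of the endoplasmic reticulum were high early and mostly not at 24 h. Of 20 genes for its chaperones and stress sensors, 9 shifted down and 3 up, with a median shift of -0.25. Their calls were 3 higher and 5 lower at 24 h, against 14 higher and 5 lower at 6 h. HSPA5, the main chaperone BiP, had 966, 976 and 961 CPM in 3 µM cells at 24 h, against 1227 and 1193 CPM in DMSO cells at 24 h, and 1669, 1703 and 1718 CPM in 3 µM cells at 6 h, against 1197 and 1219 CPM in DMSO cells at 6 h. The treated libraries were all above vehicle at 6 h and all below it at 24 h, where the difference of -0.32 was not called. SDF2L1, a BiP cofactor, shifted by -0.58 and CRELD2, a secreted stress protein, by -0.56. EDEM1, SEL1L and CANX, which sort or hold misfolded proteins, were lower at 6 h and shifted up by 0.53, 0.60 and 0.20.

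Of 18 cytosolic heat shock genes 11 shifted down and 3 up, with a median shift of -0.24. At 24 h 3 were higher and 9 lower, and at 6 h 8 were higher and 4 lower with a median effect of 0.04. In 3 µM cells 13 were lower and 3 higher at 24 h than at 6 h, against 7 lower and none higher in DMSO cells. DNAJB1 and BAG3, co-chaperones of HSP70, were higher at 6 h by 0.55 and 0.62 and had no call at 24 h, with shifts of -0.55 and -0.63. Between 6 h and 24 h DNAJB1 fell by 0.36 in DMSO cells too, and BAG3 differed there by -0.29, which was not called. CRYAB, a small heat shock protein, shifted up by 0.98, and HSPA1B by 1.01, although HSPA1B shares nearly all of its sequence with HSPA1A and its count of at most 1.46 CPM is uncertain.

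Most genes of cholesterol synthesis shifted down, and they rose over time in the vehicle arm. SREBP-2, the product of SREBF2, raises these genes when membranes run short of sterol. Of 25 genes, 17 shifted down and 5 up, with a median shift of -0.41. At 24 h 23 were lower and 1 higher with a median effect of -0.48, and at 6 h 17 were lower and 4 higher with a median of -0.15. In 3 µM cells 11 were higher and 12 lower at 24 h than at 6 h, with a median change of -0.01, while in DMSO cells 22 were higher and none lower with a median change of 0.32.

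MSMO1, a sterol methyl oxidase of the pathway, had 55.7, 55.6 and 57.0 CPM in 3 µM cells at 24 h, against 102 and 102 CPM in DMSO cells at 24 h. Its libraries at 6 h had 73.5, 78.1 and 79.3 CPM in 3 µM cells, against 73.8 and 75.6 CPM in DMSO cells. The groups overlapped at 6 h, and at 24 h the treated libraries were below vehicle, whose own level was higher than at 6 h by 0.45. The shift was -0.90 ± 0.05 (edgeR adjusted p = 8.3e-14). EBP, a sterol isomerase, was lower at 24 h by 0.39 and higher at 6 h by 0.23.

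The 5 upward shifts were those of SREBF2 itself (0.37), MVK (0.42), MVD (0.34), HSD17B7 (0.29) and TM7SF2 (0.18). The first 3 were lower at both times and less so at 24 h. The call for TM7SF2 did not hold without each library. A search of both strands of the 300-base promoters for TCACNCCAC, a sterol response element, found 1 match in 18 members with a promoter entry (5.56%), against 396 of 35116 promoters (1.13%). That match is in SREBF2, shown because its shift ran against most of its list, at chr22:41832946-41833005 of GRCh38.p14 on the + strand, from RefSeq, 124 bases from match to start, with the match in capitals.
SREBF2: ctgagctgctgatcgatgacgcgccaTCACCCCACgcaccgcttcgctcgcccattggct
Of 12 fatty acid synthesis genes 8 rose and 2 fell over time in 3 µM cells with a median change of 0.39, against 11 that rose in DMSO cells with a median of 0.34, and the shifts were 4 up and 6 down. The elongase ELOVL6 shifted by -0.73 and the desaturase SCD by -0.38, both with no call at 6 h. ACLY, which makes the acetyl units, shifted by 0.41, and ACSS2, which makes them from acetate, by 0.54, from decreases of 0.96 and 0.87 at 6 h.

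**Figure D5:**
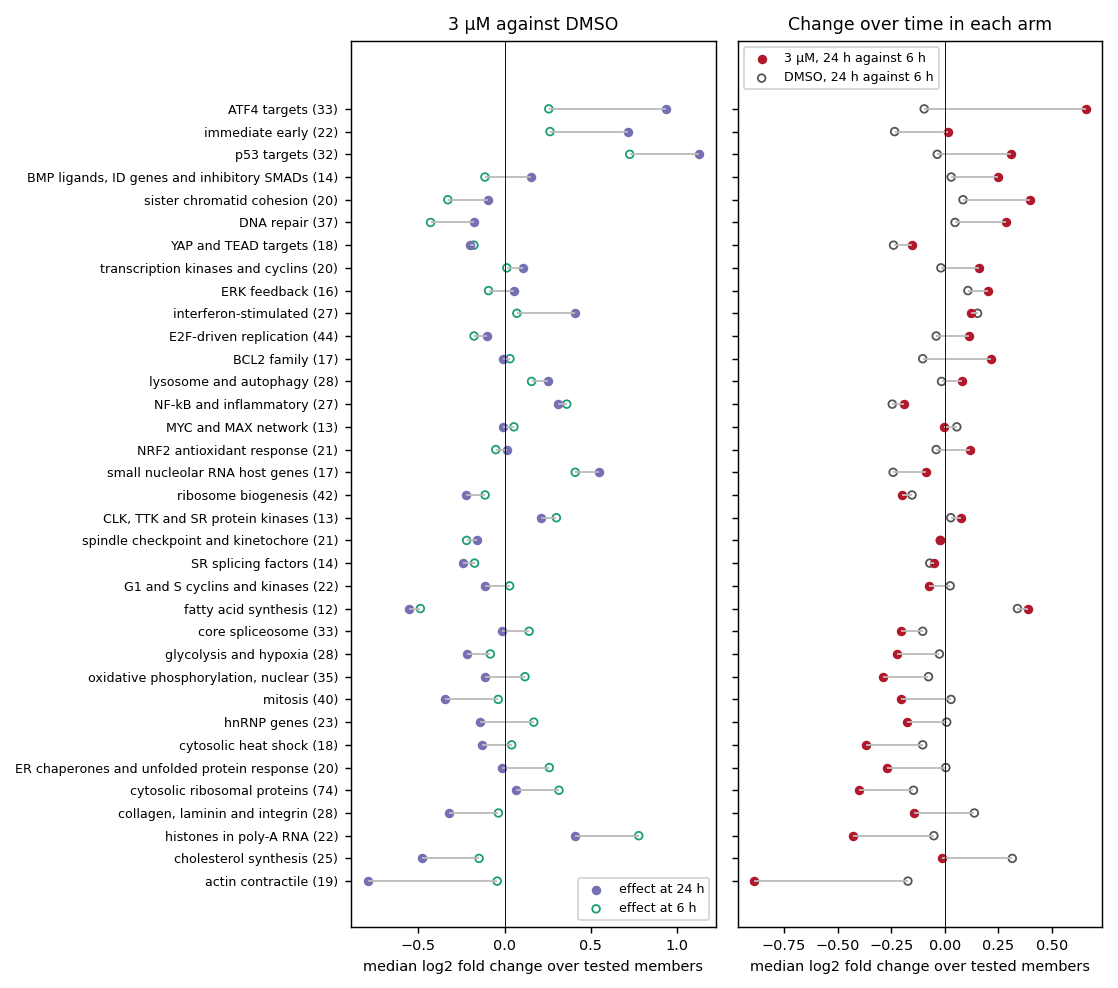
Median log2 fold change over the tested members of each gene list (number of members in brackets), ordered by the shift. Left, effect of 3 µM against DMSO at 24 h (filled) and 6 h (open); right, change from 6 h to 24 h in 3 µM cells (filled) and in DMSO cells (open). ATF4 and p53 targets lie right of 0 at 24 h and contractile genes left of it, and the cholesterol list has its vehicle point right of 0 and its 3 µM point near 0; without the scaling factors the median shift changes sign for the spindle, SR and G1 and S lists.

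Replication genes split by direction. E2F factors drive these genes as cells enter S phase. Of 44, 24 shifted up and 12 down, with a median shift of 0.15. At 24 h 11 were higher and 25 lower, and at 6 h 11 were higher and 26 lower, so that the balance of calls was alike at both times although 36 members shifted. Besides DSCC1, the upward shifts were led by CDC45, part of the replicative helicase (1.26 ± 0.07), POLE2, a polymerase epsilon subunit (0.95 ± 0.06), and PCNA, the sliding clamp (0.92 ± 0.05). PCNA had 348, 359 and 352 CPM in 3 µM cells at 24 h, against 334 and 318 CPM in DMSO cells at 24 h, and 205, 200 and 215 CPM in 3 µM cells at 6 h, against 368 and 355 CPM in DMSO cells at 6 h. It stood above vehicle at 24 h and far below it at 6 h without overlap.

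Some replication genes with a downward shift had been higher at 6 h. GINS1, another helicase part, had effects of -0.10 at 24 h and 0.65 at 6 h, FEN1, the flap nuclease, -0.28 and 0.41, and MCM7 -0.12 and 0.37. The effect at 24 h was -0.00 for GINS1 and -0.02 for MCM7 without the scaling factors, neither with a call. ORC1 and ORC6, of the origin recognition complex, stayed higher at 24 h by 0.23 and 0.19 after 0.73 and 0.60 at 6 h. RRM2, the regulated subunit of ribonucleotide reductase, was lower at both times and more so at 24 h (-0.79 against -0.34).

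Repair genes mostly shifted up. Of 37, 21 were lower and 5 higher at 24 h with a median effect of -0.18, and 31 were lower and 1 higher at 6 h with a median of -0.43. The shift was up for 22 and down for 4. FANCL, the ubiquitin ligase of the Fanconi pathway, had 33.5, 32.1 and 31.1 CPM in 3 µM cells at 24 h, against 27.2 and 27.1 CPM in DMSO cells at 24 h, and 10.9, 11.5 and 11.9 CPM in 3 µM cells at 6 h, against 28.6 and 28.1 CPM in DMSO cells at 6 h. It was below vehicle at 6 h and above at 24 h, with a shift of 1.56 ± 0.06 (edgeR adjusted p = 6.8e-17). MRE11A, a nuclease that trims broken ends, shifted by 1.13, the checkpoint kinase CHEK2 by 0.99 and FANCC by 0.89, all still lower at 24 h. The FANCC effect at 24 h was -0.09 without the scaling factors, with no call. The helicase BRIP1 had a growing decrease (-0.73 at 24 h, -0.43 at 6 h).

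Of the sister chromatid cohesion genes 14 of 20 shifted up and 3 down, with a median shift of 0.26, and 10 were lower at 24 h against 14 at 6 h. Over time 14 were higher and 3 lower in 3 µM cells, against 7 higher and none lower in DMSO cells. TIPIN, of the fork protection complex, shifted by 0.79, STAG1, a cohesin subunit, by 0.67 and WDHD1, a fork protein, by 0.52. CDCA5 (sororin), which protects cohesin, was higher at both times, by 0.39 at 24 h and 0.80 at 6 h. RAD21, the cohesin ring's closing subunit, was higher at 6 h by 0.22 and had no call at 24 h.

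Mitotic genes became lower as a set. Of 40, 32 were lower and 1 higher at 24 h with a median effect of -0.34, and 20 were lower and 14 higher at 6 h with a median of -0.04. The shift was down for 21 and up for 10. CCNB1, the mitotic cyclin, had 253, 261 and 257 CPM in 3 µM cells at 24 h, against 342 and 340 CPM in DMSO cells at 24 h. Cells collected at 6 h had 444, 477 and 487 CPM in 3 µM cells, against 362 and 354 CPM in DMSO cells. Its treated libraries were all above vehicle at 6 h and all below it at 24 h, and the shift was -0.80 ± 0.05 (edgeR adjusted p = 6.6e-13).

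KIF18A, a kinesin that aligns chromosomes, was lower at 24 h by 0.15 and higher at 6 h by 0.99, and CENPA, the centromeric histone, was lower at 24 h by 0.49 and higher at 6 h by 0.29. The KIF18A effect at 24 h was -0.05 without the scaling factors, with no call. Among the mitotic genes that shifted up were some with strong early decreases. HMMR, a spindle protein, had effects of -0.52 at 24 h and -1.61 at 6 h, KIF4A, a chromosome kinesin, -0.67 and -1.31, and ECT2, which triggers cytokinesis, -0.51 and -1.06. KIF14 and KIF20B, kinesins of cytokinesis, remained lower at 24 h by 1.21 and 0.93.

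Of 21 genes of the spindle checkpoint and kinetochore, 8 shifted up and 8 down, and the median shift of -0.02 was 0.06 without the scaling factors. At 24 h 16 were lower and none higher, and at 6 h 12 were lower and 5 higher. TTK, the target of the compound, had 96.9, 98.5 and 97.3 CPM in 3 µM cells at 24 h, against 103 and 101 CPM in DMSO cells at 24 h. At 6 h it had 124, 126 and 139 CPM in 3 µM cells, against 102 and 100 CPM in DMSO cells. Treated libraries were above vehicle at 6 h, by 1.28-fold, and just below it at 24 h, where no difference was called, and the shift was -0.42 ± 0.06 (edgeR adjusted p = 2.5e-06).

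BUB1B and BUB3 were lower at 24 h by 0.25 and 0.10 and higher at 6 h by 0.14 and 0.18, and MAD2L1 had a delayed decrease of 0.32. The BUB3 decrease at 24 h was 0.00 without the scaling factors. The kinetochore genes SPC25, NUF2 and ZWILCH and the checkpoint remodeller TRIP13 were lower at 6 h, by 1.80, 0.78, 0.92 and 0.98, and shifted up by 0.88, 0.69, 0.87 and 0.58.

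Among the 22 cyclins, kinases and pocket proteins of G1 and S phase, 7 shifted up and 9 down, and the median shift of -0.07 was 0.01 without the scaling factors. CCND2 (cyclin D2) shifted by 1.24 ± 0.21, with 2.78, 2.45 and 2.70 CPM in 3 µM cells at 24 h, against 0.899 and 0.788 CPM in DMSO cells at 24 h. At 6 h its groups were closer, with 1.19, 0.947 and 1.06 CPM in 3 µM cells, against 0.701 and 0.912 CPM in DMSO cells. RBL1 and RB1, the pocket proteins that hold E2F, were lower at 6 h by 0.89 and 0.70 and shifted up by 0.76 and 0.52. E2F2 was higher at 24 h by 0.39 and lower at 6 h by 0.32.

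The CLK kinases kept high mRNA levels at 24 h. CLK3 had 74.8, 73.4 and 74.3 CPM in 3 µM cells at 24 h, against 36.2 and 37.0 CPM in DMSO cells at 24 h, and 63.5, 66.5 and 66.9 CPM in 3 µM cells at 6 h, against 39.0 and 37.9 CPM in DMSO cells at 6 h. It was above vehicle at both times, and the shift was 0.25 ± 0.05 (edgeR adjusted p = 5.5e-05). CLK2, the other target of the compound, had 81.2, 75.6 and 77.5 CPM in 3 µM cells at 24 h, against 52.2 and 55.6 CPM in DMSO cells at 24 h, and 63.2, 59.3 and 58.3 CPM in 3 µM cells at 6 h, against 51.8 and 52.1 CPM in DMSO cells at 6 h. Its shift was 0.32 ± 0.08 (edgeR adjusted p = 0.0044).

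CLK1 and CLK4 were above vehicle at both times, with the larger effect at 6 h. CLK4 had effects of 0.93 at 24 h and 1.34 at 6 h, and CLK1 of 0.79 and 0.99. The CLK4 shift was -0.42 ± 0.06, whereas the CLK1 shift of -0.20 ± 0.06 lost its call in some fits, with edgeR adjusted p between 0.0022 and 0.081 over the alternatives. In the list of 13 CLK, TTK and SR protein kinases 5 shifted up (38.5%) and 4 down (30.8%), near the shares of 34.9% and 32.8% over genes whose mean log2 CPM was 1 or more. PRPF4B, a spliceosomal kinase, was lower at 24 h by 0.43 and higher at 6 h by 0.55. HIPK1 was lower at 6 h by 0.91 and shifted up by 0.75.

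SR splicing factors, whose proteins these kinases modify, were split. Of 14, 6 shifted up and 6 down, and the median shift of -0.02 was 0.055 without the scaling factors. At 24 h 10 were lower and 2 higher, and at 6 h 8 were lower and 5 higher. Over time 6 were higher and 6 lower in 3 µM cells, against 1 higher and 5 lower in DMSO cells. TRA2B had 297, 309 and 305 CPM in 3 µM cells at 24 h, against 345 and 345 CPM in DMSO cells at 24 h, and 653, 695 and 672 CPM in 3 µM cells at 6 h, against 388 and 384 CPM in DMSO cells at 6 h. It crossed from above vehicle at 6 h to below it at 24 h, with a shift of -0.99 ± 0.05 (edgeR adjusted p = 1.2e-15), and its relative TRA2A shifted by -0.91 ± 0.05. SRSF5 and SRSF7 went up by 0.93 and 0.60 from early decreases of 0.82 and 1.19. SRSF2 was lower at both times and more so at 24 h (-0.61 against -0.21). Gene counts do not tell productive from nonproductive transcripts of these genes.

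Of 23 hnRNP genes, which encode RNA-binding proteins that mostly oppose SR proteins, 14 shifted down and 7 up. At 24 h 17 were lower and 3 higher, against 9 lower and 12 higher at 6 h. HNRNPDL had 291, 299 and 294 CPM in 3 µM cells at 24 h, against 445 and 441 CPM in DMSO cells at 24 h, and 694, 699 and 714 CPM in 3 µM cells at 6 h, against 447 and 446 CPM in DMSO cells at 6 h. Its groups changed places, with a shift of -1.24 ± 0.05 (edgeR adjusted p = 1.5e-17). HNRNPLL shifted by -0.87 and PTBP2, a neuronal repressor of exons, by -0.76.

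In the core spliceosome 15 of 33 genes shifted down and 8 up, with a median shift of -0.11 that was -0.03 without the scaling factors. Both arms fell, with 22 lower and 8 higher at 24 h than at 6 h in 3 µM cells, against 15 lower and 2 higher in DMSO cells. PRPF8, the scaffold of the catalytic core, was lower at both times and more so at 24 h (-1.15 against -0.49). U2AF2 and SF3B1, which recognise the end of the intron, were lower at 24 h by 0.51 and 0.19 and higher at 6 h by 0.14 and 0.40. SF3A3 recovered fully, with effects of 0.00 at 24 h and -0.71 at 6 h. Host genes of small nucleolar RNAs, whose spliced transcripts are often degraded during translation, stayed high, with 13 of 17 higher at 24 h and 14 at 6 h, while over time 7 rose and 8 fell in 3 µM cells, against none that rose and 15 that fell in DMSO cells. SNHG1 came down, with effects of 0.95 at 24 h and 1.89 at 6 h, while SNHG8 grew to 1.10 at 24 h against 0.41 at 6 h.

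Histone genes were high early and less so later. Among 22 tested histone genes, 15 shifted down and none up, with a median shift of -0.40, and 13 were higher and 6 lower at 24 h, against 18 higher and none lower at 6 h. HIST1H2AC had 9.04, 8.48 and 8.51 CPM in 3 µM cells at 24 h, against 7.86 and 7.30 CPM in DMSO cells at 24 h, and 17.7, 19.9 and 19.3 CPM in 3 µM cells at 6 h, against 7.71 and 7.43 CPM in DMSO cells at 6 h. Its shift was -1.13 ± 0.08 (edgeR adjusted p = 1.0e-11). Most histone mRNAs have no poly-A tail, so poly-A selection keeps only part of them, and near-identical copies can share reads.

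Genes of cytosolic ribosomal proteins shifted in one direction. Of 74 tested, 61 shifted down and none up, with a median shift of -0.25. At 24 h 33 were higher and 9 lower with a median effect of 0.07, and at 6 h 69 were higher and none lower with a median of 0.32. Both arms fell, with 70 lower at 24 h than at 6 h in 3 µM cells (median -0.40) and 43 lower in DMSO cells (median -0.15). RPL27A kept an excess, with effects of 0.27 at 24 h and 1.06 at 6 h, while RPS12 became lower than vehicle by 0.51 at 24 h. Many pseudogenes resemble these genes, and how the authors' counting treated reads that fit several places is not given in the sources used here.

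Ribosome biogenesis factors were mixed, with 18 of 42 shifted up and 15 down. Over time 15 were higher and 24 lower in 3 µM cells, against none higher and 24 lower in DMSO cells. The upward shifts were led by UTP6, UTP20 (1.43), UTP14A (1.30) and DDX52 (0.94), members of the early processing machinery that were 1.21 to 2.59 log2 units lower at 6 h. Box C/D and box H/ACA proteins shifted down from early increases, with -0.46 for FBL and -0.54 for NHP2. The FBL increase at 6 h was small, at 0.08 without DMSO 6 h replicate 2, and its shift was much larger than that. Of 35 nuclear genes of oxidative phosphorylation, 22 shifted down and 4 up, with a median of -0.18. With no scaling factors 14 shifted down and 7 up, with a median of -0.10. At 24 h 21 were lower and 4 higher, and at 6 h 9 were lower and 19 higher. LYRM7, an assembly factor of complex III, went against them, with a shift of 1.91 ± 0.07 from an effect of -2.46 at 6 h, and UQCRB, a subunit of the same complex, shifted by -0.54.

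A late fall was marked for genes of the actin contractile apparatus, which serum response factor and its partner MRTF drive when actin is polymerised. Of 19, 16 shifted down and none up, with a median shift of -0.69. At 24 h 18 were lower and none higher with a median effect of -0.79, and at 6 h 8 were lower and 6 higher with a median of -0.04. In 3 µM cells 16 were lower at 24 h than at 6 h with a median change of -0.89, against 12 lower with a median of -0.17 in DMSO cells.

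CNN1, the smooth muscle calponin, had 2.25, 1.90 and 1.98 CPM in 3 µM cells at 24 h, against 9.96 and 8.92 CPM in DMSO cells at 24 h. The levels at 6 h were 9.34, 9.65 and 10.3 CPM in 3 µM cells, against 10.7 and 9.47 CPM in DMSO cells. The groups overlapped at 6 h, and at 24 h treated libraries were 0.216 of vehicle. The shift was -2.16 ± 0.11 (edgeR adjusted p = 2.9e-15). ACTA2, the smooth muscle actin, shifted by -1.45 ± 0.05, TAGLN, an actin-bundling protein, by -1.35 ± 0.05 and ACTG2, another muscle actin, by -1.41 ± 0.07. ACTA2 and TAGLN had no call at 6 h. MYH9 and ACTN1, nonmuscle myosin and actinin, were already lower at 6 h, by 0.74 and 0.59, and had no called shift.

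Matrix genes followed the same direction. Of 28 genes for collagens, laminins and integrins, 15 shifted down and 6 up, with a median of -0.31. Over time 10 rose and 14 fell in 3 µM cells, against 13 that rose and 2 that fell in DMSO cells. COL1A2 had 13.2, 12.6 and 11.4 CPM in 3 µM cells at 24 h, against 21.9 and 21.3 CPM in DMSO cells at 24 h, and 18.8, 18.4 and 19.4 CPM in 3 µM cells at 6 h, against 15.5 and 15.1 CPM in DMSO cells at 6 h. It was above vehicle at 6 h and below it at 24 h, with a shift of -1.10 ± 0.07, and COL1A1 shifted by -0.89 ± 0.08. The integrin chain ITGB5 was lower at both times, by 1.14 at 24 h and 0.31 at 6 h. LAMB3 and ITGA3, which epithelia use to hold the basement membrane, shifted up by 0.77 and 0.51.

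Of 18 targets of YAP and TEAD, which also follow actin tension, 8 shifted up and 3 down, and 9 were lower and 2 higher at each of the times. Both arms fell, with 9 lower and 3 higher at 24 h than at 6 h in 3 µM cells (median -0.15), against 10 lower and 1 higher in DMSO cells (median -0.24). The upward count was 5 without DMSO 24 h replicate 2 and 5 without DMSO 6 h replicate 2. NT5E shifted by -0.68 and GADD45B by 0.64. Of 14 tested genes for BMP ligands, ID proteins and inhibitory SMADs, 9 shifted up and 2 down, with 9 higher and 4 lower over time in 3 µM cells, against 3 higher and 3 lower in DMSO cells. ID2, an inhibitor of differentiation factors, shifted by 0.49 with effects of 0.80 at 24 h and 0.30 at 6 h. BMP5 was lower by 2.20 at 24 h and 1.44 at 6 h.

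Single genes with late or growing decreases outside these lists included SMYD3, a lysine methyltransferase, FRZB, a secreted Wnt antagonist, H19, an imprinted noncoding RNA, and TBCD, a tubulin folding cofactor. SMYD3 had 3.60, 3.87 and 3.75 CPM in 3 µM cells at 24 h, against 18.9 and 18.8 CPM in DMSO cells at 24 h. Cells collected at 6 h had 13.4, 13.0 and 13.3 CPM in 3 µM cells, against 19.8 and 19.2 CPM in DMSO cells. Treated libraries were below vehicle at both times, and the shift was -1.77 ± 0.08. FRZB shifted by -1.63 ± 0.06 and H19 by -1.61 ± 0.15, both with an effect of -0.03 at 6 h, and TBCD by -1.35 ± 0.06. Late gains outside the lists included ULBP1, a ligand of the natural killer receptor NKG2D, with effects of 2.38 at 24 h and 0.46 at 6 h, and UBASH3B, a phosphatase, with 1.98 and 0.23.

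Of 27 NF-kB and inflammatory genes 6 shifted up (22.2%) and 2 down (7.41%), against 25.6% and 23.7% of all tested genes. The downward count depended on the fit, and with only the 10 libraries of the contrast fitted 6 were down. The cytokine LIF shifted by 1.31 ± 0.26, with an effect of 1.71 at 24 h and an uncalled one of 0.40 at 6 h, and NFKB2 by 0.55, while NFKBIA, the feedback inhibitor, was higher at 6 h by 0.49 and had no call at 24 h. Of 27 tested interferon-stimulated genes 12 shifted up and 8 down. At 24 h 18 were higher and 7 lower with a median effect of 0.41, and at 6 h 11 were higher and 7 lower with a median of 0.07. The upward shift of OASL had the largest size in the list, and in DESeq2 it was 2.55 with no call. The members named next are among the 8 that went down. IFI35 had 0.978, 1.01 and 1.11 CPM in 3 µM cells at 24 h, against 0.658 and 0.699 CPM in DMSO cells at 24 h, and 3.29, 4.05 and 3.12 CPM in 3 µM cells at 6 h, against 0.676 and 0.688 CPM in DMSO cells at 6 h. Its excess thus shrank without closing (shift -1.74 ± 0.20). IFITM3 and IFITM1, antiviral membrane proteins, turned from higher at 6 h to lower at 24 h, with shifts of -0.77 and -0.74.

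Of 22 immediate early genes 7 shifted up (31.8%) and 3 down (13.6%), with a median shift of 0.45. The median change over time was 0.01 in 3 µM cells, with 5 higher and 8 lower, against -0.23 in DMSO cells, with 1 higher and 6 lower. With only the 10 libraries of the contrast fitted 11 shifted up. JUNB shifted by 1.09 ± 0.17 and KLF10 by 0.73 ± 0.12, both with no call at 6 h. EGR1 had 33.2, 32.3 and 32.5 CPM in 3 µM cells at 24 h, against 7.29 and 7.79 CPM in DMSO cells at 24 h, and 15.2, 12.6 and 11.0 CPM in 3 µM cells at 6 h, against 10.3 and 10.9 CPM in DMSO cells at 6 h. Its treated libraries lay above vehicle at both times, narrowly at 6 h, and its shift of 1.83 ± 0.64 was called (edgeR adjusted p = 0.036) with an adjusted p between 1.4e-06 and 0.10 over the alternatives. MYC had effects of -0.16 at 24 h and -0.20 at 6 h with no call at either time and a shift of 0.04 ± 0.19 (edgeR adjusted p = 0.90). MYCN, in contrast, had a delayed decrease, with a shift of -1.13 ± 0.08. In the network of 13 MYC and MAX genes 4 shifted up and 4 down, and without the scaling factors 8 shifted up. Of 16 ERK feedback genes 7 shifted up, among them the receptor EPHA2 (0.40), and 2 down. Over time 11 of these were higher and 3 lower in 3 µM cells, against 8 higher and 3 lower in DMSO cells.

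Of 21 NRF2 targets, which answer oxidants, 9 shifted up and 6 down, and without the scaling factors 3 shifted down. Over time 8 were higher and 5 lower in 3 µM cells, against 3 higher and 5 lower in DMSO cells. SLC7A11 belongs to this list as well as to that of ATF4. OSGIN1 was higher at 24 h by 0.93 and lower at 6 h by 0.32, GCLM, of glutathione synthesis, was lower at 6 h by 0.85 and had no call at 24 h, and HMOX1 shifted by 1.44 ± 0.49 with an adjusted p between 2.7e-14 and 0.088 over the alternatives. Of 28 lysosome and autophagy genes 10 shifted up and 2 down, with 16 up without the scaling factors, and with 20 higher at 24 h and 18 at 6 h. SQSTM1, the autophagy receptor p62, had 404, 398 and 413 CPM in 3 µM cells at 24 h, against 305 and 304 CPM in DMSO cells at 24 h, and 199, 201 and 204 CPM in 3 µM cells at 6 h, against 333 and 326 CPM in DMSO cells at 6 h. It was below vehicle at 6 h and above it at 24 h, a shift of 1.12 ± 0.08.

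Of 17 tested BCL2 family genes 9 shifted up (52.9%) and 6 down (35.3%), against 25.6% and 23.7% of all tested genes. Among genes whose mean log2 CPM was 1 or more the shares were 34.9% and 32.8%, so that the downward share was near theirs. Over time 9 were higher and 6 lower in 3 µM cells, against 2 higher and 7 lower in DMSO cells. Among the death-promoting genes of the family, HRK (1.20), PMAIP1 (0.88) and BIK (0.62) shifted up and BAD (-0.28) and BID (-0.42) down. The protectors BCL2, BCL2L1 and MCL1 shifted by -0.23, -0.17 and -0.23, and BCL2L2 by 0.80 from an early decrease of 1.19. Of 28 tested glycolysis and hypoxia genes 14 shifted down and 7 up. VEGFA, the vascular growth factor, was higher at 24 h by 1.10 and lower at 6 h by 0.22, a shift of 1.31 ± 0.10. HK2 had a delayed decrease of 0.87. Of 20 transcription kinases and cyclins 10 shifted up and 4 down. MNAT1 and CCNH, partners of CDK7, shifted up by 1.05 and 0.69, while CDK9, which releases paused polymerase, stayed higher at both times, by 0.47 at 24 h and 0.97 at 6 h.

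The shift at 3 µM was set against that at 10 µM. Both doses are read against the same vehicle libraries, so that vehicle drops out and the test compares the change from 6 h to 24 h in 3 µM cells with that in 10 µM cells. It was called for 2589 genes (11.8%), with the 3 µM shift above the 10 µM shift for 1066 (4.84%) and below it for 1523 (6.92%). The count above was 708 without the third 10 µM library at 24 h. The balance depended on the settings, with 1469 above and 1454 below under a stricter filter on low counts and 848 above and 1957 below without the scaling factors. SELPLG had 0.489, 0.482 and 0.409 CPM at 3 µM and 24 h, against 0.461, 0.452 and 0.475 CPM at 10 µM and 24 h, and 6.63, 7.27 and 6.29 CPM at 3 µM and 6 h, against 13.4, 14.9 and 11.9 CPM at 10 µM and 6 h. The doses overlapped at 24 h and were apart at 6 h, with shifts of -3.65 at 3 µM and -4.64 at 10 µM and a difference of 0.98 ± 0.18 (edgeR adjusted p = 0.00072). CCR6 and the potassium channel gene KCNJ14 were of the same kind, with differences of 0.93 ± 0.19 and 0.85 ± 0.17.

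HIF1AN, the hydroxylase that restrains HIF-1, recovered to a like level at both doses from a deeper early decrease at 10 µM. It had 78.3, 78.5 and 79.2 CPM at 3 µM and 24 h, against 79.1, 81.6 and 78.0 CPM at 10 µM and 24 h, and 30.8, 28.9 and 31.5 CPM at 3 µM and 6 h, against 19.1, 17.1 and 21.5 CPM at 10 µM and 6 h. The difference of the shifts was -0.68 ± 0.07 (edgeR adjusted p = 1.8e-05). NMD3, an export adaptor of the large ribosomal subunit, differed by -0.63, the cytokine IL33 by -0.72 and the phosphodiesterase gene GDPD1 by -0.77. GPNMB, a glycoprotein of stressed lysosomes, differed by -0.67, and its doses were apart at 24 h, with 6.87, 7.57 and 7.38 CPM at 3 µM, against 12.1, 12.8 and 13.4 CPM at 10 µM.

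By list, the counts of the dose difference are to be read against 4.84% of all tested genes upward and 6.92% downward. These shares were not counted for the genes whose mean log2 CPM was 1 or more. The dose difference was called upward for 11 of 19 contractile genes and downward for none, with median shifts of -0.69 at 3 µM and -0.87 at 10 µM. For p53 targets it was upward for 11 of 32 and downward for none, with medians of 0.34 at 3 µM and 0.19 at 10 µM. Ribosome biogenesis factors had 14 of 42 downward and none upward, SR splicing factors 7 of 14 upward and none downward, and spindle checkpoint genes 8 of 21 downward and none upward. For ATF4 targets 4 were upward and 3 downward of 33. No member of the BMP list was called.

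The line was checked against cell type markers. The hormone receptor genes ESR1 and PGR had at most 0.0445 CPM in any of the 10 libraries, and the B cell gene MS4A1 had no count in any of them. The basal keratin KRT5 was at 0 in 9 of 10 libraries, while the luminal keratin KRT8, the epithelial EPCAM and the mesenchymal VIM were all abundant. EGFR, listed with the basal markers, was also well expressed, at 86.8 to 92.8 CPM in 3 µM cells at 24 h, against 85.8 to 86.5 CPM in DMSO cells at 24 h. At 6 h it had 57.4 to 64.5 CPM in 3 µM cells, against 79.7 to 86.7 CPM in DMSO cells. The leukocyte gene PTPRC was detected at 6.02 to 6.55 CPM in 3 µM cells at 24 h, against 12.3 to 13.1 CPM in DMSO cells at 24 h, with CD3E and CD3D at 0 in 8 and 7 libraries. CD14, another leukocyte marker, had 1.54 to 1.94 CPM in 3 µM cells at 6 h, against 0.129 to 0.175 CPM in DMSO cells at 6 h. The endothelial marker CDH5 had 8.27 to 8.44 CPM in 3 µM cells at 24 h, against 16.5 to 16.9 CPM in DMSO cells at 24 h. Among the 6 tested fibroblast markers all 6 shifted down and all 6 rose in DMSO cells over time, beside the matrix list, which shares COL1A1 and COL1A2 with them. The fibroblast genes DCN and THY1 were at 0 in 6 and 5 libraries and at most 0.0262 CPM elsewhere. The summed level of the fibroblast markers was 271 to 286 CPM in 3 µM cells at 24 h, against 350 to 355 CPM in DMSO cells at 24 h, and 320 to 321 CPM in 3 µM cells at 6 h, against 278 to 290 CPM in DMSO cells at 6 h, and their part in the matrix result was not tested. Of 5 tested leukocyte markers 2 shifted down and none up, and of 7 luminal markers 4 up and 2 down.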

How the data were processed

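Poly-A RNA of CAL51 cells was sequenced from strand-specific libraries as paired reads, per the labels' protocols. The deposited values are counts of read pairs per gene symbol for each library, with no normalization by the authors; per the submitters' processing notes STAR, HTSeq and edgeR were used with GRCh37 (hg19). Tool versions and the strand setting of the counting are not stated by these sources, so overlapping and antisense genes, and genes with near-identical copies, are uncertain. The 5 closing counter lines of each file were left out of library sizes and tests.

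Genes were kept by edgeR's filterByExpr (minimum count 10, minimum total 15). One edgeR 4.0.16 quasi-likelihood fit (R 4.3.3) held the means of 6 groups over all 16 libraries with TMM scaling, without a replicate term. Every p was adjusted by Benjamini and Hochberg over all 22007 genes, and an adjusted p under 0.05 made a call. The SE is the log2 difference divided by the square root of its F statistic, and CPM use TMM-scaled library sizes. The script was tested on simulated counts. Alternatives were DESeq2 1.42.0, other scaling, other filters, the contrast's libraries alone, a replicate block and each library left out. Deviations of same-numbered libraries correlated between -0.076 and 0.081, so that the numbers do not pair them.

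Named genes were the 10 largest called shifts in each direction whose mean log2 CPM was 1 or more that held without each library, the largest of each class and of each list, members against their list, the compound's targets with a few checkpoint genes, and the largest dose differences. Clone names, antisense, small RNA and pseudogene-like names were left out of the first set. Members and lists were chosen with earlier results of these data known. Promoter sequences are from RefSeq on GRCh38.p14, another build than that of the counts, and were joined by symbol alone. The exon numbers were added after the data had been seen. A few of the named genes are left out of the text.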

Additional observations from a re-analysis of the deposited data

Results flagged for a closer look

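Differences between the times, by the test of the shift itself, were called for 10853 genes. Calls of opposite sign at 24 h and 6 h were found for 1031 genes higher at 6 h and lower at 24 h, and for 881 genes lower at 6 h and higher at 24 h. Among genes whose mean log2 CPM was 1 or more and whose shift call held without each library, the largest reversals were SLC7A11 (2.34), PTK2B (2.01), PPCDC (1.88) and EML2 (1.85) upward and DCHS1 (-1.62), OPN3 (-1.56), CXCR4 (-1.52) and ACTG2 (-1.41) downward, all as log2 shifts. The small ACTG2 increase at 6 h, and so its reversal, did not keep its call in every fit. It was 0.10 without 3 µM 6 h replicate 3 (edgeR adjusted p = 0.083) and 0.11 with the replicate block (edgeR adjusted p = 0.053).

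The shifts at 3 µM and 10 µM differed for 2589 genes, by the test of that difference. Among genes whose mean log2 CPM was 1 or more and whose call held without each treated library, clone, antisense and pseudogene-like names aside, the largest were 0.98 for SELPLG, 0.93 for CCR6, 0.85 for KCNJ14, 0.69 for PRR26 and 0.62 for PSORS1C3, and in the other direction -0.77 for GDPD1, -0.72 for IL33, -0.68 for HIF1AN, -0.67 for GPNMB and -0.63 for NMD3. For PSORS1C3 the 3 µM shift was 0.05 and the 10 µM shift -0.58.

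The counter lines of the files, which enter no gene test, held a larger share of pairs outside exons in 3 µM cells than in DMSO cells, by 1.38 percentage points at 24 h and 1.34 at 6 h. The shares did not overlap between 3 µM and DMSO cells at either time.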

How the results depend on the processing

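Over 17 alternatives the number of called shifts lay between 9562 and 11008, against 10853. The replicate block gave 10720 and is no pairing of the design, since the numbers do not pair the libraries. Counts for the vehicle arm over time were 2642 to 3616 in all, 1437 to 1997 higher and 1062 to 1619 lower when single libraries were left out, against 4522, 2421 and 2101. The dose difference in the upward direction had 708 to 1264 calls when single libraries were left out, against 1066. Left-out ranges were 560 to 1220 higher and 385 to 854 lower genes called only at 24 h, 615 to 1412 higher and 432 to 927 lower genes called only at 6 h, and 553 to 881 higher genes that faded in part. A stricter filter tests fewer genes and gave 268 higher and 207 lower genes called only at 24 h and 298 higher and 228 lower called only at 6 h. With that filter a called shift alone was positive for 31 genes and negative for 35. Without the scaling factors 808 higher genes grew and 1348 reversed from lower to higher. Of 12036 comparisons for single genes, 11644 kept direction and side of the threshold, 360 lost the call, 12 gained it and 20 changed sign. Of 697 comparisons of list medians 108 moved by more than the replicate spread, 35 of them without the scaling factors, and of 1394 comparisons of list counts 24 moved by over 1.5 times, 9 of them without the scaling factors. That setting raised the median shift of every list by 0.08, for mitosis to -0.10 against -0.18, for hnRNP genes to -0.11 against -0.19 and for glycolysis and hypoxia genes to -0.09 against -0.17. The sign changed without scaling factors for the effect at 24 h of BCL2L11 (0.02), BUB3 (0.00), EFTUD2 (0.01), ETV5 (0.02), HNRNPH3 (0.02), HNRNPUL1 (0.01), NOP56 (0.02), NUF2 (0.01), PRPF6 (0.01) and SNRPA1 (0.01), and for the uncalled shift of VPS36 (0.07). When single libraries were left out the uncalled shifts changed sign in some fits for PDE3B (-0.06 to 0.15), PSORS1C3 (-0.16 to 0.25) and VPS36 (-0.07 to 0.05), and for VPS36 without a filter (0.00). Apart from what a filter or the scaling does by construction, the cause was not tested. With 2 vehicle libraries at each time, small changes in the vehicle arm are the least certain, and low counts limit the switched-on genes.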
